A study of Mus musculus with 6 samples.

Results

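The cytosolic ribosomal proteins are the protein part of the ribosomes that translate nuclear messages. Their genes were taken by symbol: every row named Rpl or Rps with a number and an optional a, l, x or y, together with Rpsa, Rplp0, Rplp1, Rplp2 and Fau. S6 kinase rows and pseudogene rows ending in -ps were left out. This rule found 82 genes among the 43346 rows of the deposited count table, and 74 of them had enough counts to be tested. By role the 82 are 43 proteins of the large subunit, 3 of its stalk, 31 of the small subunit and 5 paralogs. Paralogs are related second copies of such genes, and among these 5 Rps4l has no annotated coding sequence.

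The counts come from brains of 6 adult male C57BL/6 mice. In 3 mice Kdm6a, an X-linked demethylase of lysine 27 on histone H3, was deficient, and the 3 others were littermates labelled wild type. Both genotypes were bred from Kdm6a-LoxP mothers and Thy1-Cre fathers, and the labels do not say which alleles the wild-type mice carried. Thy1-Cre expresses Cre recombinase mainly in neurons, and glia and vessel cells of the tissue are not its main target. Kdm6a had 500, 621 and 515 counts in deficient mice 1 to 3 and 777, 647 and 821 counts in wild-type mice 1 to 3, or -0.51 as log2 fold change (SE 0.07; adjusted p = 0.00761 in edgeR, and 0.05001 without wild-type mouse 2). The counts cover the whole gene, so they do not isolate the deleted part. Libraries held 18542590 to 24531408 counts, of which the 82 genes took 0.427%, 0.400% and 0.405% in the deficient mice and 0.374%, 0.384% and 0.414% in the wild-type mice. Neuron markers summed to 6900 to 7356 CPM (counts relative to the size of the library, scaled by TMM) in deficient brains and to 6982 to 7120 CPM in wild-type brains, and no gene of that list was at 0.

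A ribosome holds a single copy of nearly every one of these proteins, and cells keep their production in step with ribosomal RNA. The messages carry a 5′ terminal oligopyrimidine tract, a run of C and T at the start of the transcript through which mTOR signalling sets their translation. In neurons some of these messages are also found in axons and dendrites. Mammalian genomes hold very many processed pseudogenes of this family, which differ from the parent gene at few bases.

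A pyrimidine tract near the annotated start was found in part of the family. The tract was defined as C followed by C or T for at least 8 bases in all, read on the strand of the gene between 30 bases before and 20 bases after the start. It was found in 32 of the 61 members with a RefSeq start (GRCm38.p6), or 52.5%, and in 18.2% of all 27025 genes. Rps2, Rpl30, Rpl3 and Rpl29, whose levels varied between mice, were looked up and gave no such tract or had no RefSeq start. The same held for Rps3, Rpl8 and Rplp1. Shown are 50 bases before and 20 after the start, with the tract in capitals. They belong to the most abundant member by CPM, Rpl4, and to Rpl34, Rpl35a and Fau, 3 other members whose levels varied between mice.
Rpl4, chr9:64173337-64173406, plus strand: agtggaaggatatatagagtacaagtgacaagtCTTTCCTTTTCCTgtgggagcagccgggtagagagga
Rpl34, chr3:130730379-130730448, minus strand: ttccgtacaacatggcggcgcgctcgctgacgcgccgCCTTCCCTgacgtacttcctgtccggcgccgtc
Rpl35a, chr16:33056432-33056501, plus strand: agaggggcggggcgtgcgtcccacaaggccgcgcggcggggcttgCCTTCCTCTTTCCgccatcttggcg
Fau, chr19:6057897-6057966, plus strand: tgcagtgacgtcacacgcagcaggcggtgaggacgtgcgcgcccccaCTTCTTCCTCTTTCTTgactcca
The tracts are 13, 8, 13 and 16 bases long in that order. Those of Rpl4 and Rpl34 end before the annotated start, and those of Rpl35a and Fau run across it. In the window of 250 bases before to 50 after the start, read on both strands, CTTCCG was present in 67.2% of the members and 18.8% of all genes. GCCATCTTG was present in 3.28% of members and 1.42% of all genes, and TATAAA in 9.84% of members and 15.7% of all genes. These matches describe the letters only.

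None of the 74 tested genes passed an FDR (false discovery rate) of 5% in edgeR's quasi-likelihood test, against 0.0466% of all 15030 genes tested, 0.0133% as higher and 0.0333% as lower in the deficient brains. Under DESeq2 none passed either. An unadjusted p under 0.05 was reached by 2 members, where 5.83% of all genes did. What the members had in common was a small upward displacement. Deficient over wild type, 63 of the 74 log2 fold changes were positive, or 85.1%, against 50.1% of all genes, and the median was 0.05 against 0.00 for all genes. The direction was spread over the roles, with 33 of 41 large-subunit genes positive (median log2 fold change 0.06), 2 of 3 stalk genes (median 0.02) and 27 of 29 small-subunit genes (median 0.05). Genes that share libraries are not independent, so these counts carry no test. In bulk tissue, a change in the number of cells of a type and a change in RNA per cell cannot be told apart.

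**Figure D1:**
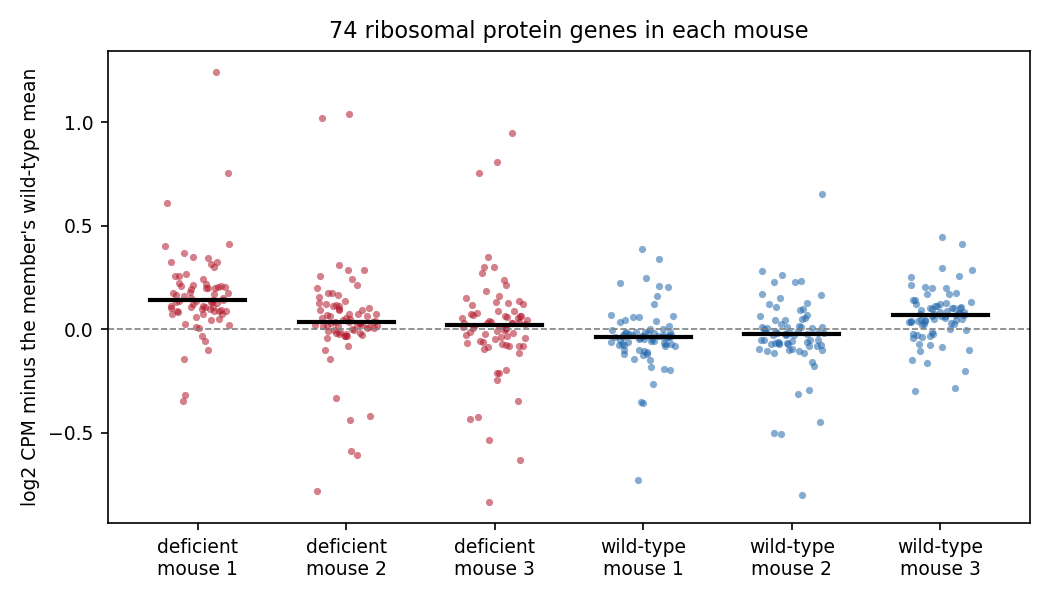
Each point is 1 of the 74 tested ribosomal protein genes in 1 mouse, as log2 CPM minus the mean of that gene over the 3 wild-type mice, with deficient mice in red at the left and wild-type mice in blue at the right; black lines are medians over the genes. The median is 0.14 in deficient mouse 1 and below that in the other 5 mice, and wild-type mouse 3 lies above deficient mice 2 and 3.

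Read by mouse, the displacement did not separate the genotypes. Set against each gene's wild-type mean and averaged over the 74 genes, log2 CPM came to 0.17, 0.04 and 0.02 for deficient mice 1 to 3, against -0.04, -0.03 and 0.06 for wild-type mice 1 to 3. Deficient mouse 1 was the highest and wild-type mouse 3 the second highest. The difference between the genotypes was 0.07 (deficient 0.07 ± 0.08, wild type 0.00 ± 0.06, SD, n = 3 each), no larger than the spread among the deficient mice. Deficient mice 1, 2 and 3 had 68, 52 and 43 of the 74 genes above the wild-type mean, and wild-type mice 1, 2 and 3 had 18, 28 and 55. Without deficient mouse 1 the median log2 fold change was 0.02 and 49 of 74 genes were positive. Leaving out deficient mouse 3 gave a median of 0.08, leaving out wild-type mouse 1 gave 0.04 and leaving out wild-type mouse 3 gave 0.09. When length and GC content of the transcripts were corrected for, the median was also 0.02 and 55 genes were positive.

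The displacement was most even among the abundant members. Of the 24 with a mean count of 1000 or more, 23 were positive, and the log2 fold changes ran from -0.01 to 0.13 around a median of 0.05. Rpl4, a protein of the exit tunnel of the large subunit, stood at 392, 352 and 366 CPM in deficient brains and at 350.5, 351 and 370 CPM in wild-type brains (log2 fold change 0.05, SE 0.05). Rpl8, a core protein of the large subunit, stood at 269, 248 and 258 CPM in deficient brains and at 243, 242 and 277 CPM in wild-type brains (0.02, SE 0.06). Wild-type mouse 3 lay within the range of the deficient mice for Rpl4 and above it for Rpl8.

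Rps14, a small-subunit protein, had the largest positive log2 fold change of these 24 at 0.13 (SE 0.07). Its level was 146, 124 and 146 CPM in deficient brains and 126, 117 and 135 CPM in wild-type brains, with deficient mouse 2 inside the wild-type range. Rplp1, a phosphoprotein of the stalk that recruits elongation factors, was the only negative one of the 24 (-0.01, SE 0.05), with 206 ± 9.08 CPM in deficient brains and 207 ± 5.49 CPM in wild-type brains (SD, n = 3 each). Its sign was positive when libraries were scaled by total counts.

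**Figure D2:**
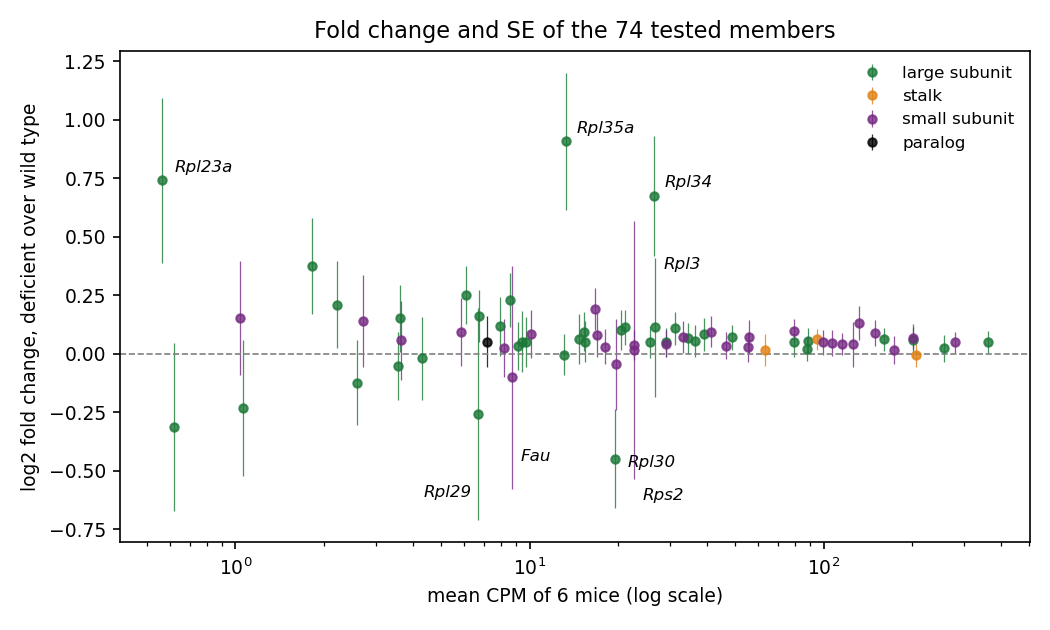
Log2 fold change of deficient over wild type, with its SE as the bar, against the mean CPM of the 6 mice on a log scale for the 74 tested members, coloured by role. Most points lie just above 0 with short bars, while Rpl35a, Rpl34, Rpl30, Rpl29, Fau, Rps2 and Rpl3 have long bars or lie far from 0.

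The levels of some members moved between single mice by more than read counting gives, as those of many other genes did. Among the 62 members with a mean count of at least 100, 16 (25.8%) had a within-genotype SD on the log2 scale more than 3 times the SD that counting alone would give, against 12.3% of all 11579 such genes. After the common displacement of each mouse was subtracted, 11 of the 62 (17.7%) were still above that line, against 12.9% of all such genes after the mean of all genes in each mouse was subtracted, and 47 were under 2 times the counting SD. The background kept any displacement that a gene family shares, so the last comparison is not like for like. Wide spread is therefore not given as a trait of the family. For Rps14, Rps21 and Rpl13a, 3 of the 11, high counts made the counting SD small, and their residual SD was 0.07 to 0.11 on the log2 scale. The other 8 had a residual SD of 0.29 to 0.70 and are given by mouse as a description of these genes.

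Rps2, a small-subunit protein close to the mRNA entry channel, had the widest residual spread, 10.2 times its counting SD. Deficient mice 1 to 3 gave 375, 349 and 764 counts, against 374, 621 and 414 counts from wild-type mice 1 to 3. Deficient mouse 3 and wild-type mouse 2 were high, and the other 4 lay close together. The log2 fold change was 0.02 (SE 0.55).

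Rps18, a protein of the small-subunit head, put the same 2 mice on top with a smaller range. It had 403, 389 and 501 counts in deficient brains and 414, 440 and 428 counts in wild-type brains, and in CPM deficient mouse 3 (24.5) and wild-type mouse 2 (23.8) stood above the range of the other 4 (15.8 to 18.4). Rps2 and Rps18 lie on the same chromosome, at chr17:24718116-24721929 on the plus strand and chr17:33951999-33956001 on the minus strand (GRCm38). Rpl10a, Rpl36 and Rps10 lie on chromosome 17 too, and none of them had both of these mice on top. Against the wild-type mean, their log2 CPM was -0.21, 0.19 and 0.06 in deficient mouse 3. It was 0.23, -0.16 and 0.05 in wild-type mouse 2, the highest mouse for Rpl10a, and 0.21, 0.61 and 0.20 in deficient mouse 1. Rpl3, which sits beside the peptidyl transferase centre, was low in the mice where Rps2 was high, with 745, 752 and 401 counts in deficient brains and 627, 338 and 730 counts in wild-type brains (log2 fold change 0.11, SE 0.30). Those 2 mice also had the smallest libraries and the lowest mitochondrial share, 3.03% in deficient mouse 3 and 3.07% in wild-type mouse 2 against 3.33% to 3.46% in the others, and the part of depth and RNA quality in these values was not tested. Over all genes the deviations of these 2 mice from their genotype means had a correlation of -0.004.

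Other members put different mice apart. Fau, whose product is split into a ubiquitin-like protein and the small-subunit protein S30, had 235, 119 and 211 counts in deficient brains and 246, 88 and 267 in wild-type brains. It was low in deficient mouse 2 and wild-type mouse 2, and its log2 fold change was -0.10 (SE 0.48). Rpl29, a small basic protein of the large subunit, had 203, 110 and 96 counts in deficient brains and 92, 154 and 224 in wild-type brains (-0.26, SE 0.45). High and low mice were found in both genotypes for each of these genes, and which genotype was higher changed for Rps2, Rpl3 and Fau when single mice were left out.

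For Rpl34, Rpl35a and Rpl30 the mice that stood apart were mostly of 1 genotype. Rpl35a, a large-subunit protein whose human gene is mutated in some patients with Diamond-Blackfan anaemia, had 490, 468 and 227 counts in deficient brains and 172, 181 and 248 counts in wild-type brains. As CPM these are 21.9, 19.0 and 11.1 in deficient brains and 7.65, 9.79 and 10.4 in wild-type brains, so that deficient mice 1 and 2 were high and deficient mouse 3 lay just above wild-type mouse 3. The log2 fold change was 0.91 (SE 0.29, edgeR adjusted p = 0.787). Rpl34, also of the large subunit, had 494, 1021 and 705 counts in deficient brains and 453, 359 and 519 in wild-type brains. In CPM all deficient mice were above all wild-type mice, deficient mouse 1 by little, and the log2 fold change was 0.68 (SE 0.26, edgeR adjusted p = 0.850).

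Rpl30, a large-subunit protein whose yeast homolog binds its own transcript, had the opposite sign, with 392, 397 and 332 counts in deficient brains and 567, 284 and 642 in wild-type brains. Wild-type mouse 2 was the lowest of the 6 in counts and in CPM. The log2 fold change was -0.45 (SE 0.21, edgeR adjusted p = 0.878). Each of these 3 genes passed 5% FDR when the mouse nearest the other genotype was left out: Rpl35a without deficient mouse 3 (edgeR adjusted p = 0.00144), Rpl34 without deficient mouse 1 (0.000742) and Rpl30 without wild-type mouse 2 (0.0224). Choosing the mouse to leave out by its value favours such calls, and with all 6 mice none was called.

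**Figure D3:**
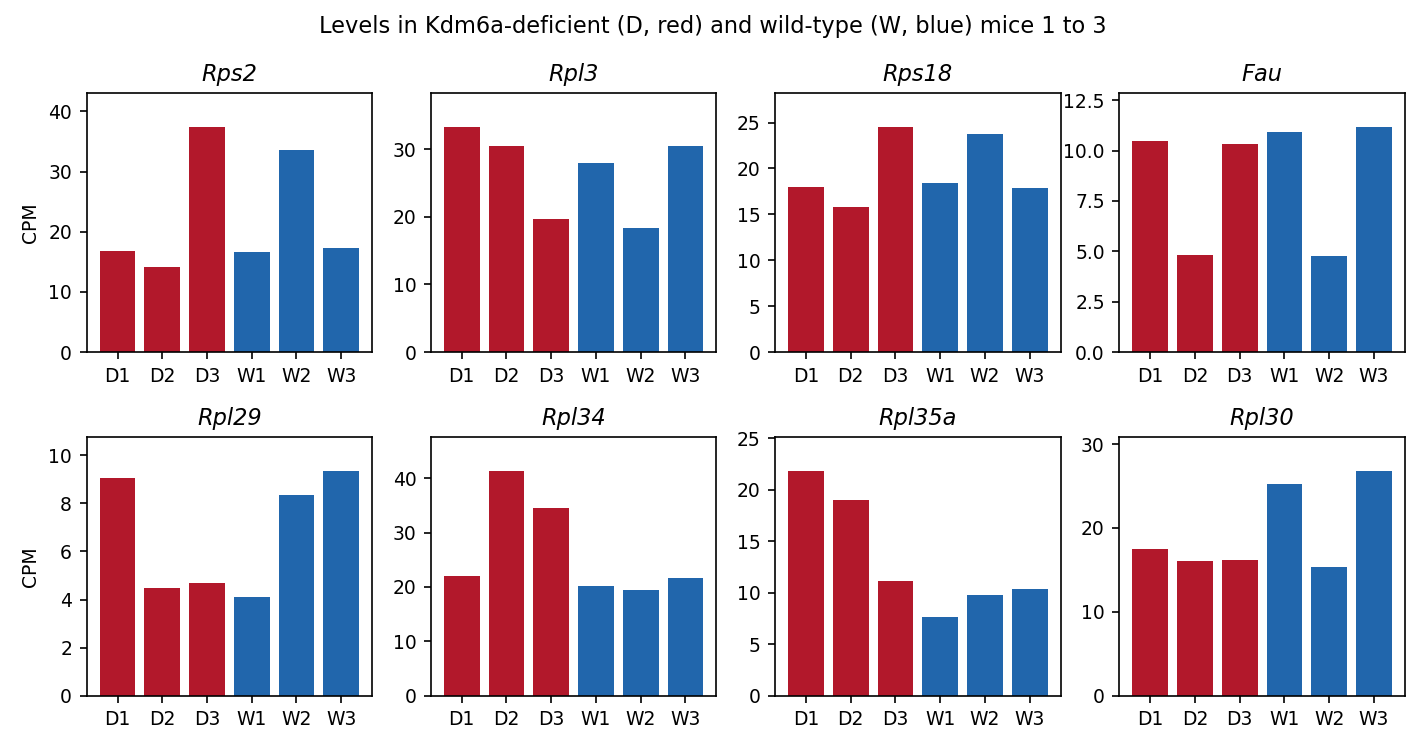
CPM of 8 members in each mouse, with deficient mice 1 to 3 (D1 to D3) as red bars and wild-type mice 1 to 3 (W1 to W3) as blue bars; each panel has its own axis from 0. Rps2 and Rps18 are high in D3 and W2, Rpl3 is low in the same 2 mice, Fau is low in D2 and W2, and Rpl34 and Rpl35a are highest in deficient brains.

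In CPM, 3 members had all deficient mice above all wild-type mice: Rpl35a, Rpl34 and Rpl36, against 5.60% of all genes, and no member had all of them below, against 5.63%. Rpl36, a large-subunit protein at a low level, had 2.45, 1.95 and 1.81 CPM in deficient brains and 1.56, 1.41 and 1.80 CPM in wild-type brains (log2 fold change 0.37, SE 0.21). Rpsa, which is both a small-subunit protein and the precursor of a laminin receptor, had 19.4, 17.5 and 16.3 CPM in deficient brains and 15.2, 14.5 and 16.9 CPM in wild-type brains (0.19, SE 0.09). In Rpsa wild-type mouse 3 lay above deficient mouse 3. Rpl28 (0.25, SE 0.12), Rpl36a (0.23, SE 0.12) and Rpl23a (0.74, SE 0.35), all of the large subunit, were the other 3 of the 6 positive members with the smallest p, and their groups overlapped. Rpl23a, which lies at the mouth of the exit tunnel, rests on 17, 12 and 18 counts in deficient brains and 11, 7 and 9 in wild-type brains.

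On the negative side Rpl30 was followed by members with few counts or wide errors. Rpl13 had a log2 fold change of -0.31 (SE 0.36) from 18, 12 and 7 counts in deficient brains and 16, 15 and 13 in wild-type brains, and Rpl19 one of -0.23 (SE 0.29) from 14 to 28 counts in deficient brains and 14 to 32 in wild-type brains. Rpl27 (-0.12, SE 0.18) and Rpl5, a partner of 5S ribosomal RNA that also binds Mdm2 (-0.05, SE 0.15), complete the 6 smallest p with a negative sign beside Rpl29. Rpl13 and Rpl19 ranked among the 8 widest residual spreads, but at 0.94 and 1.20 times the counting SD their spread was close to what counting gives.

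How much of each gene the reads could show differed widely between members. Of the 82, 74 had at least 1 near-identical copy elsewhere, meaning 95% identity or more to some other gene's transcript over 200 bases, or over 90% of a shorter one. Together these were 589 genes of the GENCODE M21 annotation, 563 of them pseudogenes, and 38 of them had any counts. For 30 members no stretch of 50 coding bases was free of a match in another gene's transcripts, genes overlapping the member included. The sources used here do not state how reads that match several places were counted, so the level of a member with copies is uncertain.

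Rps27 and Rps12, core proteins of the small subunit, had 0 counts in all 6 libraries, and so did the rows of their copies Rps27rt and Rps12l1. The first 100 coding bases, shown because they are identical in each pair, are:
Rps27 and Rps27rt: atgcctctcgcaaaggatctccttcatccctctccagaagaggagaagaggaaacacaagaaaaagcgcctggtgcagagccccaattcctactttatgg
Rps12 and Rps12l1: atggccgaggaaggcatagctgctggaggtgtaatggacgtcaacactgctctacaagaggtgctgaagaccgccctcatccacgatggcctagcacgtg
The 2 genes of each pair are identical over all 252 and 396 coding bases. Rpl8 has no near-identical copy and is unique in 91.3% of its coding 50-mers; it is the contrast to them, and its first 100 coding bases are:
Rpl8: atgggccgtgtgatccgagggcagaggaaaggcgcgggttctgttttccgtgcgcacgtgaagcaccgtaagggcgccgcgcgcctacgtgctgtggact
A listed 0 in a gene of this kind is not read as absence of the transcript. Rpl24 (1, 2 and 0 counts in deficient brains, 0, 0 and 1 in wild-type brains) and Rpl17 (4, 8 and 6 in deficient brains, 2, 5 and 4 in wild-type brains) were also too low to test, and neither has a unique coding 50-mer. Rpl24 shares exon bases with Gm28037 on the same strand, so its matches are not only in copies elsewhere.

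Levels per length were higher where more of the coding sequence was unique. As CPM per kilobase of coding sequence, the median was 10.6 over the 30 subunit genes with no unique 50-mer and 45.3 over the 28 with up to 20% unique. It was 109 over the 9 with 20% to 50% and 311 over the 10 with more than 50%. Those 10 ranged from 168 to 506, the highest being Rps21, while the 30 ranged from 0 to 524. The 5 paralogs went against this order, with mostly unique sequence and levels of 0 to 28.4. For Rps4l, which has no annotated coding sequence, the whole transcript was used. Without the paralogs Spearman's rho between unique share and level per kilobase was 0.71 over 77 genes, and with them 0.48 over 82, as a description of genes that share their libraries. The highest levels per kilobase belonged to Rplp1 (603), Rpl41 (524), Rps21 (506), Rps15 (398) and Rps3 (385). Rpl41, the smallest of the ribosomal proteins, has no unique coding 50-mer, and its value stands outside this order, as does that of Rps29 (331). Their coding lengths are only 75 and 168 bases, while the counts cover the whole gene, so division by coding length raises both values. In CPM Rpl41 averaged 40.4 in deficient and 38.1 in wild-type brains. The lowest tested were Rpl13 (0.974), Rpl23a (1.20), Rpl19 (1.80), Rps23 (2.42) and Rps6, the substrate of S6 kinase (3.62).

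**Figure D4:**
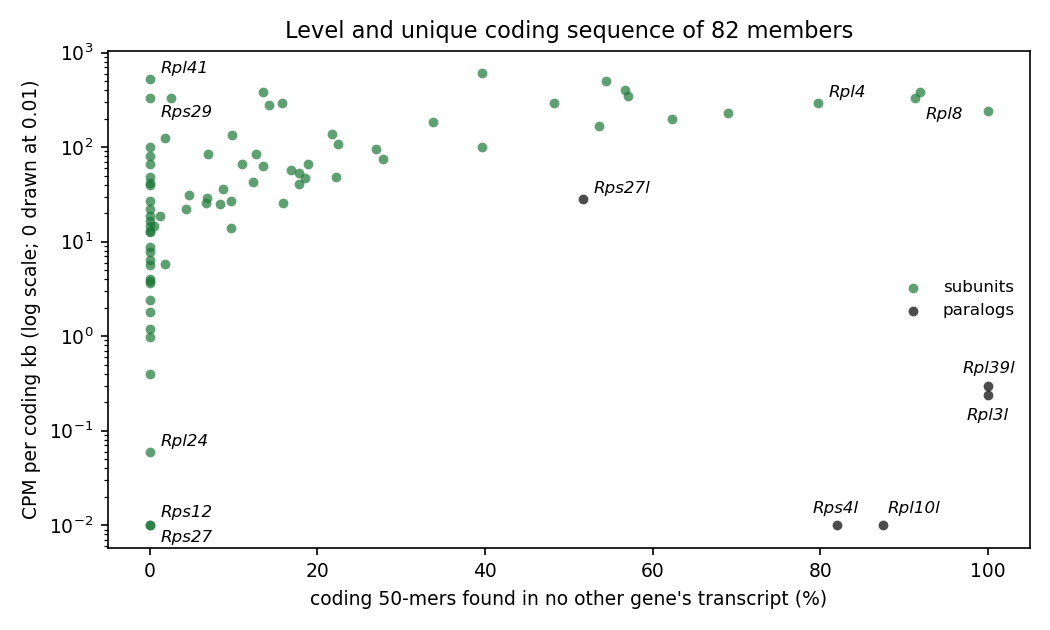
Share of a member's coding 50-mers found in no other gene's transcript (x axis, %) against its mean CPM per kilobase of coding sequence over the 6 mice (y axis, log scale, 0 drawn at 0.01), for 77 subunit genes in green and 5 paralogs in black. Subunit genes with over 50% unique sequence lie between 168 and 506, and those with none spread from 0 to 524. For the paralog Rps4l the whole transcript stands in for a coding sequence.

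The small displacement was also present in members with mostly unique coding sequence. All 10 subunit genes with more than 50% unique coding sequence were positive, at a median log2 fold change of 0.05. So were all 5 tested members with no near-identical copy by the length rule above (Rpl8, Rpl39, Rps27l and Rps29 among them, median 0.05). Of these, Rps29 has no unique coding 50-mer and Rpl39 has 13.5%, so they are not free of shared sequence. Over the 11 tested members with more than 50% unique sequence, 1 of them a paralog, the mean displacement was 0.11, 0.02 and 0.03 for deficient mice 1 to 3, against -0.06, -0.04 and 0.10 for wild-type mice 1 to 3. As over all members, deficient mouse 1 was highest and wild-type mouse 3 stood above deficient mice 2 and 3. Without the 8 members whose residual spread ranked widest at any count (Rps2, Fau, Rpl29, Rpl13, Rpl34, Rpl19, Rpl3 and Rpl35a) the median was 0.06, with 59 of 66 positive.

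The 8 members given by mouse, a set that holds Rps18 and Rpl30 in place of Rpl13 and Rpl19, had little unique sequence, like most of the family. Of all 77 subunit genes, 30 had no unique coding 50-mer and 28 more had up to 20%, so this is not a trait of the 8. Unique coding 50-mers made up 15.9% of Rps2, 4.31% of Rpl3, 12.3% of Rps18, 0% of Fau, 9.74% of Rpl29, 27.8% of Rpl34, 17.8% of Rpl35a and 16.9% of Rpl30. Rps2 has 28 near-identical copies, and the closest that had counts, Gm5786 on chromosome 12, differs at 10 of 879 coding bases. Coding bases 625 to 724 of both are shown, with the 3 differing bases in capitals. They were chosen because no other stretch of 100 coding bases held more differences.
Rps2: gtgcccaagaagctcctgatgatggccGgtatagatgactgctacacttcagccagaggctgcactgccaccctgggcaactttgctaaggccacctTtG
Gm5786: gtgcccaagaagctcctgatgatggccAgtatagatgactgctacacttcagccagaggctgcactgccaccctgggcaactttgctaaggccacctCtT
Gm5786 had 1, 0 and 2 counts in deficient brains, where Rps2 had 349 to 764, and 0, 0 and 2 in wild-type brains, where Rps2 had 374 to 621. Gm9843, the copy of Fau, is identical to it over all 399 coding bases and had 1, 0 and 1 counts in deficient brains and 0, 1 and 0 in wild-type brains. Rps2 also shares exon bases with Snhg9, Rps18 with Vps52 and Rpl30 with D730044K07Rik on the opposite strand. No source used here gives the strand setting of the counting. In all, 18 members share exon bases with a gene on the opposite strand. On the same strand 27 members do, Rpl24, Rps10 and Rpl13a among them. Rpl29 has a near-identical stretch in Uimc1.

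A pseudogene showed the same pair of mice as Rps2 and Rps18. Gm10263, a copy of Rps28 on chromosome 13, had 38, 34 and 1 counts in deficient brains and 47, 0 and 25 in wild-type brains. Its low mice were deficient mouse 3 and wild-type mouse 2. Rps28 itself, a small protein near the mRNA exit, had 253, 225 and 220 counts in deficient brains and 230, 182 and 222 in wild-type brains, and its CPM of 9.12 to 11.3 in deficient brains overlapped 9.28 to 10.2 in wild-type brains. Rps28 lies at chr17:33819027-33824562 on the minus strand. The 2 sequences differ at 1 of 207 coding bases, shown in capitals at the end of coding bases 64 to 163.
Rps28: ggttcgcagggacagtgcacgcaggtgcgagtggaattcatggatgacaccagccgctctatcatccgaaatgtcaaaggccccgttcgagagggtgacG
Gm10263: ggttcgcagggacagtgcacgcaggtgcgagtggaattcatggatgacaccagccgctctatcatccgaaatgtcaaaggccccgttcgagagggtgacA
Rps3a1, the gene of the small-subunit protein S3a that the symbol rule leaves out, put another pair of mice apart, with 1170, 541 and 493 counts in deficient brains and 490, 455 and 1225 in wild-type brains. It was high in deficient mouse 1 and wild-type mouse 3, which also had the highest mean displacement of the 74 members.

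The 5 paralogs within the symbol rule were low or at 0. Rps27l, a p53-inducible relative of Rps27, was the only one tested, with 6.87, 7.83 and 7.19 CPM in deficient brains and 6.89, 6.76 and 7.44 CPM in wild-type brains (log2 fold change 0.05, SE 0.11). Rpl3l, known from heart and skeletal muscle, had 7, 10 and 5 counts in deficient brains and 4, 5 and 8 in wild-type brains. Rpl39l, known from testis, had 1, 0 and 2 counts in deficient brains and 2, 0 and 1 in wild-type brains. Rpl10l, also known from testis, and Rps4l were at 0 in every library. Of the paralogs outside the symbol rule, Rpl22l1 (log2 fold change -0.11, SE 0.11), Rpl36al (-0.01, SE 0.08) and Rpl7l1 (0.07, SE 0.12) were not past 5% FDR.

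Other genes of translation and ribosome assembly were also without calls. Of 19 genes listed as translation factors or other messages with pyrimidine tracts, none passed 5% FDR. Of these 19, 17 (89.5%) were positive, and the median log2 fold change was 0.04. Their tracts were not looked up here. Their mean displacement was 0.06, 0.02 and 0.04 for deficient mice 1 to 3, against -0.03, -0.01 and 0.04 for wild-type mice 1 to 3. As among the ribosomal proteins, deficient mouse 1 was highest and wild-type mouse 3 was the highest of its genotype. Npm1, a nucleolar chaperone of ribosome assembly, had 77.0, 77.2 and 75.2 CPM in deficient brains and 69.0, 74.1 and 71.2 CPM in wild-type brains, with no overlap (0.10, SE 0.05, edgeR adjusted p = 0.852). Hnrnpa1, an RNA-binding protein (0.16, SE 0.09), and Eef1d, a subunit of elongation factor 1 (0.06, SE 0.05), followed. Of 29 ribosome biogenesis genes none passed, 20 (69.0%) were positive and the median was 0.03. Their mean displacement was 0.03, 0.04 and -0.0006 for deficient mice 1 to 3, against -0.02, 0.04 and -0.02 for wild-type mice 1 to 3. Here wild-type mouse 2 and deficient mouse 2 were highest and wild-type mouse 3 lay below 0, unlike their places among the ribosomal proteins, and the difference between the lists was not tested. Nop10, a protein of the box H/ACA particles that guide pseudouridylation, had 34.4, 32.9 and 32.4 CPM in deficient brains and 27.2, 28.2 and 31.1 CPM in wild-type brains (0.20, SE 0.07, edgeR adjusted p = 0.603). Gar1, of the same particles, was at -0.18 (SE 0.10), and Bms1, a GTPase of small-subunit assembly, at 0.09 (SE 0.05).

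Markers of other cells and tissues also differed between these mice. All 7 blood markers measured, globins among them, had positive log2 fold changes (none passed 5% FDR), and they summed to 63.5 to 86.3 CPM in deficient brains and 52.6 to 67.0 CPM in wild-type brains, with none at 0. Their mean displacement was highest in deficient mouse 1 (0.60 on the log2 scale), where the ribosomal genes were also highest, but lowest in wild-type mouse 3 (-0.16), where the ribosomal genes were second. Of 10 cerebellar markers 9 were positive, at a median log2 fold change of 0.15. They summed to 925 to 1152 CPM in deficient brains and 883 to 1005 CPM in wild-type brains. An unadjusted p under 0.05 in edgeR was reached by 4 of them and by 2 of the 7 blood markers, where 5.83% of all genes did. Of 6 choroid plexus markers 1 was positive, with sums of 652 to 1044 CPM in deficient brains and 806 to 1213 CPM in wild-type brains. Of 6 markers each, 1 astrocyte, 1 oligodendrocyte, 1 microglia and 2 endothelial markers were positive, and no gene of these lists passed 5% FDR. The part of blood and of cell composition in the displacement of the ribosomal genes was not tested.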

How the data were processed

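Per the labels' protocols, brain RNA went into Illumina TruSeq libraries. Build GRCm38 and DESeq2 appear in the submitters' processing notes, while no source used here names the aligner, counting tool, annotation or strand setting. The authors deposited 1 column of raw counts per mouse and, per the file headers, the mean normalized count (a signal scaled by size factors), log2 fold change, test score and p-value of their DESeq2 comparison. The authors' log2 fold changes run wild type over deficient and are not printed here.

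Counts of all genes were tested with edgeR 4.0.16 (R 4.3.3; TMM scaling, default expression filter, robust quasi-likelihood F test, two-sided, Benjamini-Hochberg adjustment over 15030 genes, threshold 0.05), after a check on simulated data. The tested contrast was deficient over wild type, 3 mice each. The p-values set the genotype difference against the spread between mice within a genotype, estimated with information shared across genes. The labels name no litter, batch or day, so the part of such factors was not tested. Displacements are log2 CPM with a prior count of 2. The SD from counting is the Poisson SD on the log2 scale. Coding lengths, 50-mers and copies (blastn 2.17.0) come from GENCODE M21 on GRCm38, and starts from RefSeq GRCm38.p6.

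Members and lists were chosen with earlier results of these data known. Named genes are the 6 members with the smallest p in each direction, the 8 of widest residual spread, the 5 highest and 5 lowest tested per coding length, the paralogs, Kdm6a, and the 3 smallest p of the translation factor and biogenesis lists. Rps14, Rps18, Rps28, Rps29, Rpl4, Rpl8, Rpl13a, Rpl36, Rpl39, Gm10263, Gm5786 and Rps3a1 were named after their values were seen. Alternatives were RLE or no scaling, DESeq2 1.42.0, limma-voom 3.58.1, a replicate block, no expression filter, only genes averaging 1 CPM, a threshold of 0.10, leaving out every mouse in turn, 0.5 as prior count, pseudogene rows added, members without copies, and length with GC correction. Leaving out the 8 members of widest spread was chosen after the data were seen.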

Additional observations from a re-analysis of the deposited data

How the results depend on the processing

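The median log2 fold change of the members, their number of positive values and the mean displacement kept their direction under every alternative run. With 1 mouse left out the median ran from 0.02 to 0.09, the positive members from 49 to 65 of 74, and the displacement from 0.03 to 0.11; members called ran from 0 to 1, and calls among all genes from 3 to 17, against 7 with all mice. With length and GC correction the displacement was 0.04. Calls among all genes were 25 with no filter and 20 with DESeq2, and 0 members were called in either. With 1 mouse left out, log2 fold changes ran across 0 for Rps2 (-0.53 to 0.41), Fau (-0.38 to 0.19), Rpl3 (-0.067 to 0.31), Rpl27 (-0.22 to 0.032), Rpl5 (-0.10 to 0.024), Rplp1 (-0.035 to 0.029), Rps21 (-0.055 to 0.15), Rps15 (-0.030 to 0.076), Rps27l (-0.0037 to 0.098) and Rpl36al (-0.086 to 0.094). Signs also changed for Rps2 with limma-voom (-0.039), for Rps2 (-0.0099), Rps15 (-0.014) and Rps27l (-0.0042) with the length and GC correction, and for Rplp1 (0.0087) and Rpl36al (0.0099) with total counts. Without wild-type mouse 2 the edgeR adjusted p of Kdm6a was 0.05001. The cause of these changes was not tested.

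The labels do not say that the mouse numbers pair the mice. Same-numbered mice deviated together with correlations of 0.00, 0.08 and 0.05 over all genes, and differently numbered mice with -0.13 to 0.07. Correlations this small cannot show whether a number marks a shared litter or batch. With the replicate block 0 members and 15 of all genes were called, the median was 0.06, 63 members were positive and the displacement was 0.07, while Rps2 (-0.020) and Rpl36al (0.00099) changed sign. Counting error is widest for the 20 of the 82 members with a mean under 100 counts. Of these, 15 have no unique coding 50-mer, and the part of depth in their low counts was not tested.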
